A study of Mus musculus with 16 samples.

Results

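Brown adipose tissue (BAT) and gonadal white adipose tissue (gWAT) of control mice were compared gene by gene. The comparison used 8 of the 16 arrays of the series, the 4 titled BAT-WT and the 4 titled gWAT-WT. These arrays hold total RNA from BAT or gWAT of male C57BL/6NCrSlc mice, 16 weeks old, kept at 23 °C on normal chow and labelled as littermate wild type. Per the study's methods the controls carried floxed Pgam1 alleles without Adipoq-Cre, so that both depots shared the same floxed background. The other 8 arrays came from Adipo-Pgam1 KO mice, in which Cre driven by the adipocyte promoter of Adipoq deletes Pgam1, the glycolytic enzyme that converts 3-phosphoglycerate to 2-phosphoglycerate. Of these, the 4 gWAT-KO arrays were used here as a second set of gWAT samples (1 of them, replicate 4, from a mouse 14 weeks old). Labels give each array its own sample without naming animals, so p-values measure the spread between these samples.

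BAT is a heat-producing fat. Its adipocytes hold many small lipid droplets and dense mitochondria, whose uncoupling protein Ucp1 lets protons return to the matrix without making ATP, under control of sympathetic nerves acting through cAMP. gWAT is a visceral storage fat, with large adipocytes that release fatty acids and hormones, lies under a mesothelial lining and holds many resident macrophages. The depots also arise from different embryonic regions and keep different sets of Hox and other patterning genes.

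Each level below is the log2 of a gene's processed signal after division by the array's 75th percentile, so that 0 is the signal of a fairly bright probe, and levels are compared only within a gene. A difference is BAT-WT minus gWAT-WT on that log2 scale, with its standard error (SE) from the fit, and a gene was called higher or lower at an adjusted p under 0.05. The 75th percentile was 401.3 to 451.3 intensity units on the BAT-WT arrays and 570.3 to 855.3 on the gWAT-WT arrays. Probes well above background made up 50.7% to 55.7% of probes on the BAT-WT arrays and 53.3% to 62.2% on the gWAT-WT arrays. Arrays of the same depot correlated at 0.9822 to 0.9903 (BAT-WT) and 0.9625 to 0.9856 (gWAT-WT), and arrays of different depots at 0.8379 to 0.8738. In whole tissue, fewer cells of a type and less RNA per cell cannot be told apart.

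Several features of the arrays bear on the results. Pgam1 was lower on the arrays labelled gWAT-WT (5.07, 5.15, 5.67 and 5.56) than on those labelled gWAT-KO (6.50, 6.42, 6.38 and 5.95), against the labels. In BAT it followed them, at 7.94, 7.93, 8.07 and 7.82 in BAT-WT and 6.20, 6.13, 6.03 and 6.43 on the arrays labelled BAT-KO. The position of the probe relative to the floxed exons is not given in the sources used here, and the cause was not tested. Results are therefore also given with the arrays labelled gWAT-KO in place of those labelled gWAT-WT, a comparison that shares the 4 BAT-WT arrays with the main one. The gWAT-WT arrays also differed among themselves in liver-type transcripts: Alb, the plasma protein albumin, was at 5.26, 7.86, 3.67 and 3.43 on gWAT-WT 1 to 4 and at most -6.02 in BAT-WT. The summed linear level of the liver-type list was 469, 3812, 75.9 and 42.1 on gWAT-WT 1 to 4 against 73.3 to 102 in BAT-WT, and the testis marker Prm2, a sperm protamine, stood at 2.39 on gWAT-WT 1 and between -4.09 and -2.04 on the other 3. The 35 tested liver-type transcripts were set aside from the rankings of named genes and from the other gene lists. The 90 other genes that varied with them across the gWAT-WT arrays, 125 in all with the former, were only marked. These 90 stayed in the rankings and lists. Slides and depots overlapped little: BAT-WT 1 to 3 shared slide 1, BAT-WT 4 and gWAT-WT 1 to 3 shared slide 2, and gWAT-WT 4 was on slide 3. Only slide 2 held both depots.

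The depots differed across much of the transcriptome. Of 14299 genes tested, 5073 (35.5%) were higher in BAT and 4173 (29.2%) were lower in BAT than in gWAT, with a median difference of 0.10 over all genes tested. At least 2-fold differences were called for 2451 genes (17.1%) higher in BAT and 2628 (18.4%) lower. The arrays of the depots did not overlap at all for 8427 of the 9246 genes called. Of the calls 54.9% were higher in BAT, and this split depended on the scaling: it was 71.0% after scaling to Actb and Rplp0 and 42.1% after scaling to the spike-in probes (48.3%, 65.4% and 36.3% of the calls of at least 2-fold). At least 4-fold differences were called for 749 genes higher in BAT and 1185 lower, and at least 32-fold for 53 against 126. That excess toward gWAT depended on dim genes and on the scaling: among genes well above background on all 8 arrays the 4-fold counts were 572 and 627, and after scaling to Actb and Rplp0 they were 1081 and 886. Some genes were called while no array of one depot was well above background: 66 (0.462%) were higher in BAT with no gWAT-WT array above background, and 460 (3.22%) were lower in BAT with no BAT-WT array above background. For such genes the difference is a bound, written "at least N-fold", in which the dim depot is set on each array to the higher of its own signal and the lowest signal among probes well above background. With gWAT-KO arrays in place, 4851 genes were higher and 4250 lower of 14125 tested.

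Thermogenic genes were far higher in BAT. Ucp1, the uncoupling protein, was at 10.00, 10.00, 9.83 and 9.72 on the BAT-WT arrays and at -5.12, -6.13, -6.34 and -4.95 on the gWAT-WT arrays, where it was on no array well above background. All BAT arrays were thus near the top of the scale and all gWAT arrays near its floor, and Ucp1 was at least 20756-fold higher in BAT (adjusted p = 3.9e-08). Cidea, a lipid droplet protein of brown adipocytes, was at 10.34, 10.37, 10.45 and 10.47 in BAT-WT and 2.19, 3.20, 3.05 and 2.95 in gWAT-WT, a difference of 7.56 (SE 0.21, adjusted p = 1.4e-07). Unlike Ucp1, Cidea was measured well above background on every gWAT array. Dio2, the deiodinase that activates thyroid hormone, was at 4.60, 5.66, 4.62 and 3.96 in BAT-WT and -3.64, -5.76, -3.25 and -5.76 in gWAT-WT, where 2 of 4 arrays were above background, and differed by 9.31 (SE 0.64, adjusted p = 6.2e-06). Of the 28 thermogenic genes tested, 26 were higher in BAT, all at least 2-fold, with a median difference of 4.65 against 0.10 over all genes. None of the 26 overlapped between depots, as was the case for 8427 of all 9246 genes called.

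**Figure D1:**
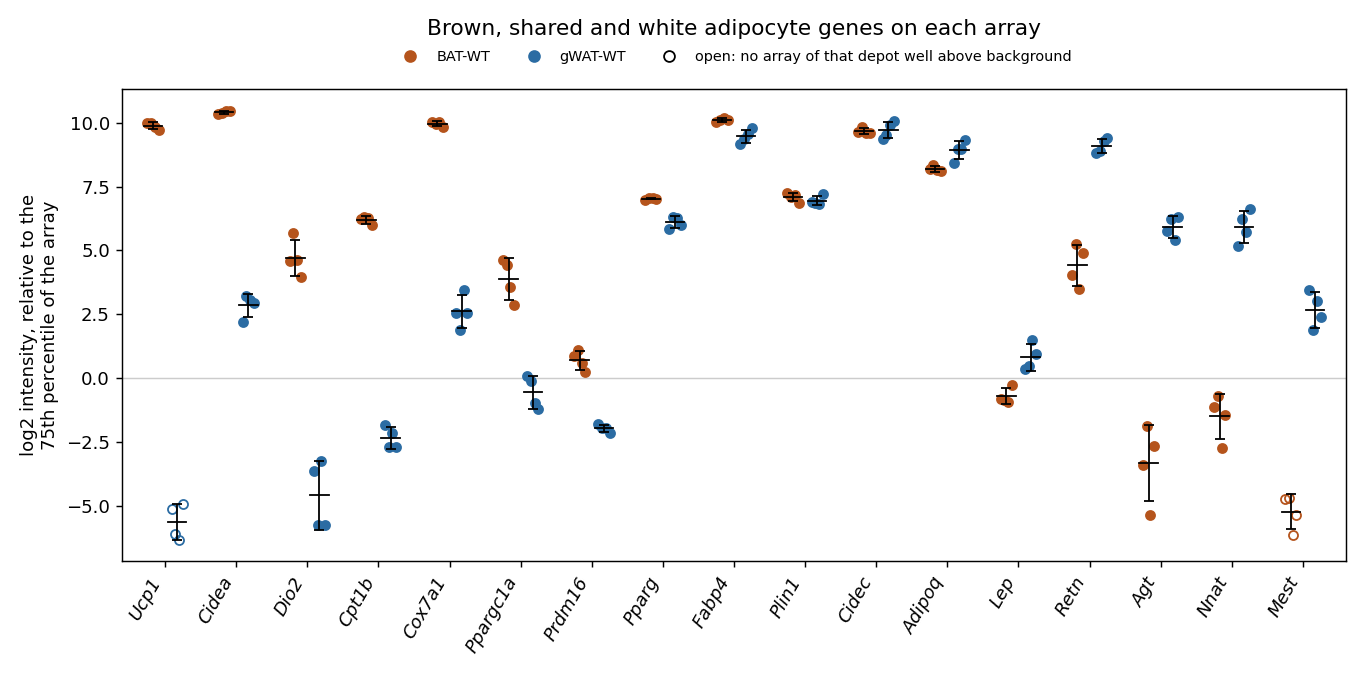
Levels of 17 genes on each array (y axis: log2 of the processed signal over the array's 75th percentile), BAT-WT and gWAT-WT side by side, with bars at the mean ± SD of 4 arrays and open symbols where no array of the depot was well above background. Ucp1, Cidea, Dio2, Cpt1b and Cox7a1 were separated by 7.35 or more, while Pparg, Fabp4, Plin1 and Cidec lay within 0.93 of each other between depots, and Agt, Nnat and Mest were far higher in gWAT.

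Regulators of the brown programme were mostly higher in BAT too. Ppargc1a, the coactivator of mitochondrial biogenesis, was at 4.61, 4.43, 3.57 and 2.85 in BAT-WT and 0.06, -0.12, -1.0 and -1.22 in gWAT-WT (difference 4.43, SE 0.44, adjusted p = 4.4e-05). Prdm16, a zinc finger factor of brown fat identity, was at 0.86, 1.09, 0.59 and 0.24 in BAT-WT and -1.81, -1.96, -1.98 and -2.16 in gWAT-WT (difference 2.67, adjusted p = 6.7e-06). Both regulators were higher on every BAT array than on any gWAT array. Among nuclear receptors, Ppara differed by 4.44, Esrrg by 4.51 and Esrra by 2.43, each called. Irf4 and Zfp516, transcription factors tied to the thermogenic programme, were the list's exceptions: Irf4 was at 0.71, 2.33, 0.70 and 2.61 in BAT-WT and -1.03, 1.66, -1.01 and 2.14 in gWAT-WT (difference 1.15, adjusted p = 0.26), and Zfp516 differed by -0.40 (adjusted p = 0.088). Irf4 varied within each depot as much as between depots, and its levels rose and fell with the replicate number in both. With a replicate block, 27 of the 28 thermogenic genes were higher in BAT and 1 lower. Slc27a2, a fatty acid transporter, was called (difference 6.66, adjusted p = 0.006), but its gWAT-WT levels of 1.51, 3.97, -2.75 and -4.45 spread widely and followed the liver-type pattern, and its call was lost with slide as a fixed block (adjusted p = 0.087).

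The proximal promoters of Ucp1 and Dio2 are shown as the regions around the start sites of these strongly BAT-enriched genes, from RefSeq on GRCm38.p6, 250 bases before to 50 bases after the start. The region of Ucp1 lies at chr8:83290098-83290397 on the plus strand and that of Dio2 at chr12:90738989-90739288 on the minus strand. Capitals mark the cAMP response element TGACGTCA, searched on both strands, which begins 95 bases before the Dio2 start. The Ucp1 window held none of the 4 words searched (TGACGTCA, AAGGTCA, GCGCATGCG and AAGATGGCG). TGACGTCA was present in 1.79% of all 32851 promoters of the same length and in 2.83% of the 14403 promoters of genes tested.
Ucp1: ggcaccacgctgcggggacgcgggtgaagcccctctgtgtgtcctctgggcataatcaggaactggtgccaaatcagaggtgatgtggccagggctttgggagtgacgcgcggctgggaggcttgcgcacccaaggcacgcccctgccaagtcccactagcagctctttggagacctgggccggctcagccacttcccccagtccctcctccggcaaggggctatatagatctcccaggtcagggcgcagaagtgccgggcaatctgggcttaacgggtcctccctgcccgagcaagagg
Dio2: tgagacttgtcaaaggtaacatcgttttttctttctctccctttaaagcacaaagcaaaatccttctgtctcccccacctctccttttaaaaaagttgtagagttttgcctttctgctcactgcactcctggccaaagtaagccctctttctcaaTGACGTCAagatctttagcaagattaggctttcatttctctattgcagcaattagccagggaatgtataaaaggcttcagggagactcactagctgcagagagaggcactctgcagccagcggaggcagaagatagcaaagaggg

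Among genes well above background on every array of both depots, which leaves out Ucp1 and Dio2, Otop1, a proton channel, had the largest difference toward BAT, 9.19 (4.60 on its other probe). Fabp3, the fatty acid carrier of oxidative muscle, was at 9.21, 8.93, 8.99 and 8.87 in BAT-WT and 0.11, -0.35, -1.62 and 1.50 in gWAT-WT and differed by 9.09 (SE 0.55, adjusted p = 3.3e-06). Cpt1b, the muscle form of the enzyme that admits fatty acids to mitochondria, was at 6.23, 6.31, 6.26 and 5.98 in BAT-WT and -1.86, -2.70, -2.17 and -2.69 in gWAT-WT and differed by 8.55 (SE 0.20, adjusted p = 7.4e-08). Fabp3 scattered more among the gWAT arrays than Cpt1b, and neither gene overlapped between depots. They were followed by Acot11, an acyl-CoA thioesterase (8.44), Cidea (7.56), Cox7a1 (7.35), the asparaginase gene Aspg (7.16), the neurotrophin receptor gene Ntrk3 (7.06), the tubulin gene Tuba8 (6.37), S100b (6.24), the mitochondrial carrier gene Slc25a34 (6.18, but 1.80 on its other probe and 4.47 under the slide block) and Igsf21 (6.06). Genes on no gWAT-WT array above background included the brown fat long noncoding RNA Lncbate10 (at least 628-fold higher), Perm1, a muscle regulator of oxidative genes (at least 115-fold), and Txlnb (at least 35.1-fold).

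Mitochondrial genes were higher in BAT almost without exception. All 36 complex I subunits tested were higher, each at least 2-fold (1.39 to 3.13, median 2.26), and so were all 18 TCA cycle enzymes (1.63 to 4.13, median 2.60). Ndufs8, a complex I subunit, was at 8.59, 8.49, 8.57 and 8.36 in BAT-WT and 5.09, 5.24, 5.47 and 5.70 in gWAT-WT (difference 3.13, adjusted p = 1.2e-06). Sucla2 and Suclg1, subunits of succinyl-CoA ligase, differed by 4.13 and 3.80, and Idh3a, of isocitrate dehydrogenase, by 3.49. Of 39 genes of complexes III to V, 36 were higher and 3 lower (median 2.06). Cyc1, cytochrome c1 of complex III, differed by 3.28. None of the 39 overlapped between depots, which also held for 8427 of all 9246 genes called. Likewise 76 of 78 mitochondrial ribosomal proteins were higher and 1, Mrps6, was lower (-0.51, with arrays that overlapped and a call lost with slide as a fixed block, with median centring or Actb and Rplp0 scaling, and without BAT-WT 1, 2 or 4 or gWAT-WT 3 or 4), with a median of 1.43.

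**Figure D2:**
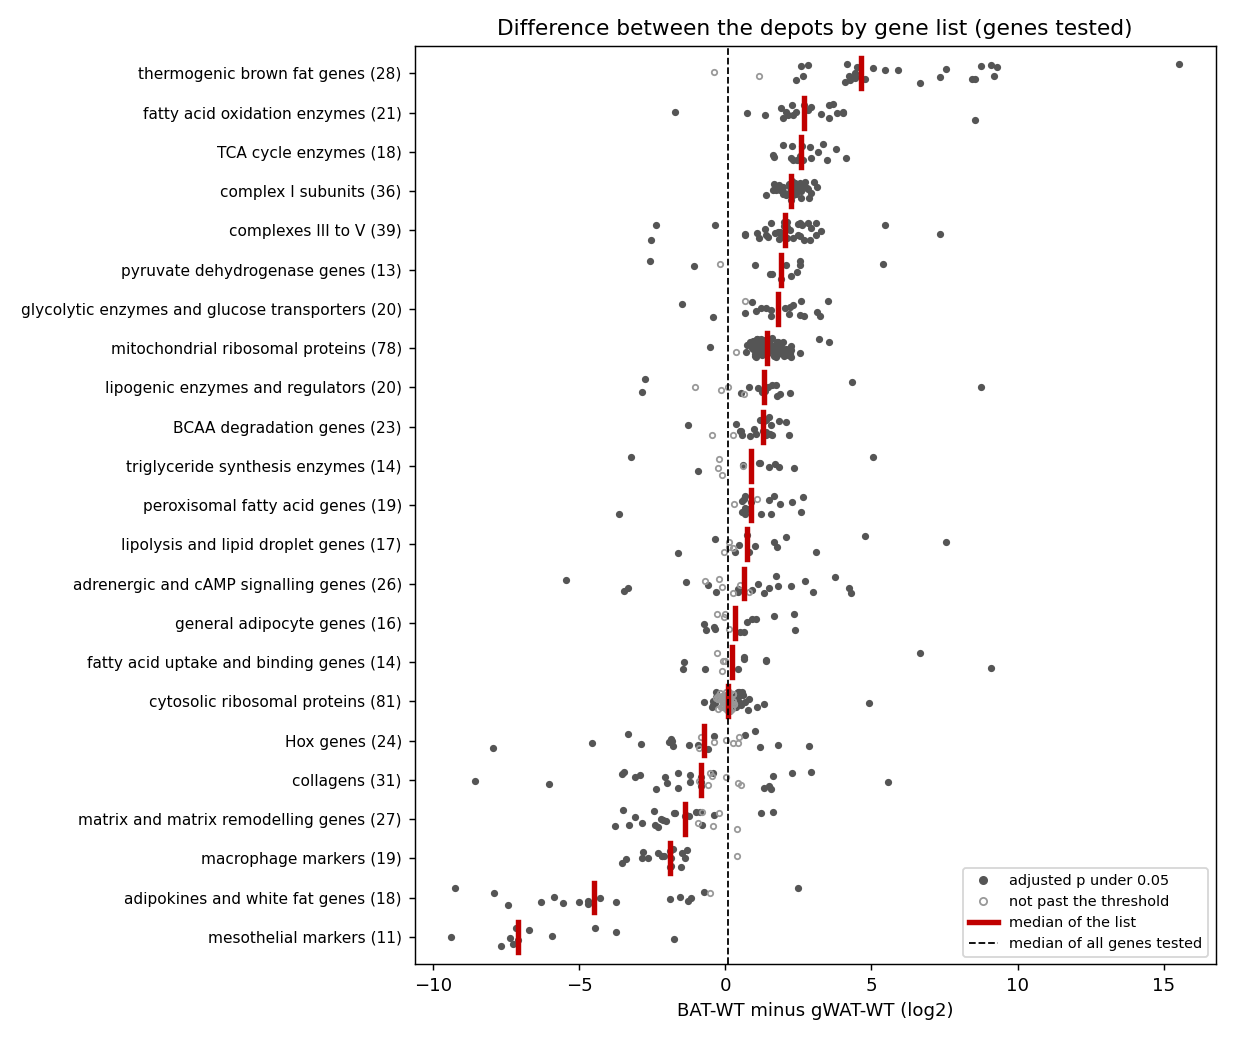
Difference of each tested member of 23 gene lists (x axis: BAT-WT minus gWAT-WT, log2), with the list median in red and the median of all genes tested as a dashed line. The thermogenic, TCA cycle, complex I and fatty acid oxidation lists lay to the right (medians 4.65, 2.60, 2.26 and 2.68), the adipokine list lay to the left (-4.48), and the cytosolic ribosomal proteins sat on the dashed line at 0.10, a place set by the scaling (-0.63 under quantile normalization and 0.43 with Actb and Rplp0).

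The exceptions within the respiratory chain were isoforms. Cox6a2, the muscle form of a cytochrome oxidase subunit, was lower in BAT (-4.74, -4.98, -4.44 and -4.12 against -2.27, -1.50, -2.95 and -2.09 in gWAT-WT; difference -2.37, adjusted p = 2.0e-04), whereas its partner Cox6a1 was higher by 1.41. Only 1 BAT-WT array was above background for Cox6a2, and with the arrays labelled gWAT-KO in place the difference was -8.61. Atp5g1, a c-subunit gene of ATP synthase, was also lower in BAT, at 2.86, 2.58, 2.80 and 2.38 against 5.02, 5.32, 5.17 and 5.25 (difference -2.53, adjusted p = 2.0e-06). Atp5g3, encoding the same c-subunit, differed by -0.36, and that call was lost with slide as a fixed or random block and without BAT-WT 1 or 2 or gWAT-WT 3 or 4. It was also lost with median centring, with Actb and Rplp0 scaling, with all 16 arrays in the fit and without the filter on dim probes. Other tissue-restricted forms went the opposite way: Cox7a1 was higher by 7.35 and its partner Cox7a2 by 2.21, and Cox8b was higher by 5.46 and Cox8a by 1.35. The pair of carnitine palmitoyltransferases split, with Cpt1b higher by 8.55 and the liver form Cpt1a lower at 1.66, 1.26, 1.32 and 0.75 against 3.07, 2.95, 2.89 and 2.91 (difference -1.71, adjusted p = 6.6e-05). Cpt1a was the only member lower among 21 fatty acid oxidation genes, of which 20 were higher (median 2.68). In that list Slc25a20, which carries acylcarnitine across the inner membrane, and Hadha, of the trifunctional protein, each differed by 4.03.

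Promoters of respiratory chain genes are shown because these genes moved together. Among 67 promoters of 62 tested genes of complexes I and III to V, 9 (13.4%) held the NRF1 word GCGCATGCG, 5 (7.46%) the cAMP response element TGACGTCA, 7 (10.4%) the ERR word AAGGTCA and 7 (10.4%) the YY1 word AAGATGGCG, all on both strands. Among all promoters these shares were 1.75%, 1.79%, 4.72% and 1.4%, and among promoters of genes tested 3.17%, 2.83%, 3.5% and 2.65%. The NRF1 word matches on both strands where it lies within its own palindrome. Cycs, encoding cytochrome c, at 8.94, 8.95, 9.11 and 9.08 in BAT-WT and 5.65, 5.77, 6.18 and 6.08 in gWAT-WT, and Ndufa11, a complex I subunit that differed by 2.34, each held TGACGTCA and GCGCATGCG in this window, shown in capitals. A match describes the letters and does not show binding. The region of Cycs lies at chr6:50566520-50566819 on the minus strand and that of Ndufa11 at chr17:56717512-56717811 on the plus strand.
Cycs: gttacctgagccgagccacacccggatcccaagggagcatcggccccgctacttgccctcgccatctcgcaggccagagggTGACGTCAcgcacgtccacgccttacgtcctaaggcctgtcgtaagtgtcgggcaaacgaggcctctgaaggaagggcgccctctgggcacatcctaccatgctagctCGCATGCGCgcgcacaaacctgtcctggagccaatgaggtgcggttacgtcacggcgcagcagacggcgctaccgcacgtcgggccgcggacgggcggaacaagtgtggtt
Ndufa11: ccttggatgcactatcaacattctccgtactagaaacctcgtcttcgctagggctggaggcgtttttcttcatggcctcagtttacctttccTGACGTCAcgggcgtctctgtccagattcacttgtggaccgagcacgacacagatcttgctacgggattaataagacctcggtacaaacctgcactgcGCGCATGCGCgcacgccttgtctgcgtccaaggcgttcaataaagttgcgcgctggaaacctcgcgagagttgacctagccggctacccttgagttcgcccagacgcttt

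Glycolytic genes were also higher in BAT. Of 20 genes of glycolysis and glucose transport tested, 17 were higher and 2 lower (median 1.79). Pkm, pyruvate kinase, was at 8.45, 8.18, 8.58 and 8.35 in BAT-WT and 5.05, 4.64, 5.68 and 5.57 in gWAT-WT (difference 3.15, SE 0.23, adjusted p = 8.4e-06). Pgam1 itself differed by 2.58 (adjusted p = 3.5e-06), Pfkl, a phosphofructokinase, by 3.25, and Ldhb, the lactate dehydrogenase form of oxidative tissue, by 3.50. The lower genes were Slc2a1, the basal glucose transporter (-0.42), and Eno2, neuronal enolase (-1.47), whose arrays overlapped. Both calls were lost with slide as a fixed block and with Actb and Rplp0 scaling. That of Slc2a1 was also lost with median centring and with the arrays labelled gWAT-KO in place. Slc2a4, the insulin-responsive transporter, was higher by 1.04, a call lost under quantile normalization. With the arrays labelled gWAT-KO in place the list's median was 0.84, and Pkm differed by 0.97. At the entry of pyruvate to mitochondria, 10 of 13 pyruvate dehydrogenase genes were higher and 2 lower (median 1.91). Pdk4, a kinase that switches the complex off, was higher by 5.41, while its relative Pdk3 was lower in BAT (-2.58), as was the phosphatase gene Pdp1 (-1.08).

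Lipid genes were mixed. In lipogenesis, 14 of 20 genes were higher and 2 lower (median 1.31; 8 and 3 under quantile normalization): Elovl6, a fatty acid elongase, differed by 4.35, Acacb, an acetyl-CoA carboxylase, by 2.23 and Fasn, fatty acid synthase, by 1.27, while the desaturase genes Fads1 and Fads2 were lower (-2.83 and -2.75). Acly, ATP citrate lyase, was at 6.97, 7.64, 8.43 and 8.47 in BAT-WT and 5.51, 4.98, 7.0 and 6.50 in gWAT-WT, so that the depots overlapped (difference 1.88, adjusted p = 0.010). Under quantile normalization the calls of Fasn and Acly were lost. The lipogenic list depended on the gWAT arrays chosen: with those labelled gWAT-KO in place, 7 were higher and 7 lower (median 0.09), and Acly differed by -0.93. In triglyceride synthesis 8 of 14 genes were higher and 2 lower (median 0.88), and 5 and 2 under quantile normalization. Gk, glycerol kinase, which lets adipocytes reuse glycerol, was at 4.94, 4.83, 4.04 and 4.45 against 0.65, -0.52, -0.82 and -1.21 (difference 5.04, adjusted p = 1.0e-05), and Gpat3, a glycerol-phosphate acyltransferase, differed by -3.22. Among 17 lipolysis and lipid droplet genes, 11 were higher and 2 lower (median 0.75). The counts were 7 and 1 with slide as a block, and 8 and 5 under quantile normalization (median 0.24). The perilipins split: Plin5, the droplet protein of oxidative tissue, was higher by 4.79, Plin2 by 2.09, and Plin4 was lower at -1.60. Plin2 turned to -0.60 with the arrays labelled gWAT-KO in place.

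Genes shared by all adipocytes differed little. Pparg, the master factor of fat cells, was at 6.99, 7.06, 7.04 and 7.03 in BAT-WT and 5.84, 6.32, 6.25 and 6.01 in gWAT-WT (difference 0.93, adjusted p = 2.8e-04). Fabp4 differed by 0.64 (adjusted p = 0.004), Plin1 by 0.14 (adjusted p = 0.38), Lpl, lipoprotein lipase, by -0.01 (adjusted p = 0.93) and Cidec by -0.04 (adjusted p = 0.84). Pparg arrays stood apart between depots, while those of Plin1, Lpl and Cidec were interleaved. Of 16 such genes, 8 were higher and 4 lower with a median of 0.33, and this direction turned under quantile normalization, where 3 were higher and 10 lower (median -0.56). Fabp4 was at -0.26 and Plin1 at -0.65 under that normalization, and the call of Pparg was lost. Cebpb was higher by 2.40 and Gpd1, which makes glycerol phosphate, by 2.36.

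Adipokines and white fat genes went toward gWAT. Of 18 tested, 16 were lower in BAT and 1, Nampt, was higher (2.50), with a median of -4.48. Agt, angiotensinogen, was at -3.40, -1.88, -5.38 and -2.66 in BAT-WT and 5.75, 6.21, 5.40 and 6.32 in gWAT-WT (difference -9.25, SE 0.66, adjusted p = 7.4e-06). Retn, resistin, was at 4.03, 5.24, 3.47 and 4.91 against 8.83, 8.91, 9.27 and 9.39 (difference -4.68, adjusted p = 1.2e-05). For both genes every gWAT array was above every BAT array, and the BAT arrays were the more scattered. Nnat, an imprinted membrane protein, was at -1.13, -0.72, -2.74 and -1.45 against 5.17, 6.21, 5.71 and 6.61 (difference -7.44, adjusted p = 3.6e-06), and Mest, another imprinted gene that marks expanding fat, was at least 99.7-fold higher in gWAT. The classical hormones differed less. Lep, leptin, was at -0.83, -0.86, -0.94 and -0.26 in BAT-WT and 0.33, 0.48, 1.47 and 0.92 in gWAT-WT (difference -1.53, adjusted p = 0.001), and its call was lost with slide as a fixed block (adjusted p = 0.093). Adipoq, adiponectin, was at 8.17, 8.35, 8.13 and 8.10 against 8.44, 8.97, 8.98 and 9.33 (difference -0.74, adjusted p = 0.007). With slide as a block Adipoq had an adjusted p of 0.065, and with the arrays labelled gWAT-KO in place it differed by 0.15 (adjusted p = 0.39). The synuclein gene Sncg (-5.56), the secreted Wnt inhibitor gene Sfrp5 (-4.69), Ccdc80 (-4.28) and the natriuretic peptide clearance receptor gene Npr3 (-3.74) were lower in BAT as well.

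Serine synthesis, which branches from glycolysis at 3-phosphoglycerate, just upstream of Pgam1, had 2 enzymes among the genes furthest toward gWAT. Phgdh, its entry enzyme, was at 1.90, 1.86, 0.63 and 1.33 in BAT-WT and 6.52, 6.96, 7.75 and 7.97 in gWAT-WT (difference -5.87). Psat1, the transaminase of the next step, was at -1.15, -0.97, -1.55 and -1.15 against 4.50, 4.60, 5.09 and 4.92 (difference -5.98). No arrays of the depots overlapped for either. Psph, the last enzyme of the route, looked up after these values were seen, differed the other way, by 1.06 (adjusted p = 0.002), with an adjusted p of 0.061 under the slide block. The same ranking held Wfdc21 (-6.29), the serpin genes Serpina3m (-6.10) and Serpina3c (-5.74), Retnla (-5.84), Hspb7 (-5.82), Gsta3 (-5.79) and Plagl1 (-5.94), an imprinted zinc finger gene whose other probe gave 0.14.

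Adrenergic signalling genes differed in both directions, often within 1 family. Of 26 genes of adrenergic and cAMP signalling, 14 were higher and 6 lower in BAT (median 0.65). The beta receptors split: Adrb1 was at 1.99, 0.99, 1.29 and 0.68 in BAT-WT and -1.43, -0.64, -1.16 and -0.86 in gWAT-WT (difference 2.26, adjusted p = 1.8e-04), while Adrb3, the main receptor of fat cells, was at 5.73, 5.45, 5.78 and 5.27 against 6.58, 7.17, 7.05 and 6.76 (difference -1.33, adjusted p = 2.1e-04). With the arrays labelled gWAT-KO in place Adrb3 differed by -0.12 (adjusted p = 0.70). The alpha-1 receptors split too: Adra1a was higher by 4.24 (SE 0.12, adjusted p = 1.4e-07), and Adra1b was at least 8.81-fold lower in BAT, where no array was above background. Among adenylyl cyclases, which make cAMP, Adcy3 was higher by 4.30 and Adcy5 was at -2.49, -1.82, -2.91 and -2.58 in BAT-WT against 2.47, 2.38, 3.19 and 3.88 in gWAT-WT (difference -5.43, adjusted p = 5.3e-06). Gnas, the stimulatory G protein, differed by 2.74 and Pde4d, a phosphodiesterase that degrades cAMP, by 3.77. Th, the rate-limiting enzyme of noradrenaline synthesis, was at -0.04, 0.26, 0.41 and 1.18 against -0.99, -0.70, -0.39 and -1.08 (difference 1.24, adjusted p = 0.003). The nerve genes Dbh, Npy and Prph were on no array of either depot well above background, and nerve content was not tested. Of the Schwann cell and nerve markers tested, 7 of 8 were higher in BAT (median 1.72). That count was 4 with slide as a block and 5 without gWAT-WT 2 or 4 or with spike-in scaling. S100b, at 5.69, 5.26, 5.81 and 5.40 against -0.90, -1.76, 0.51 and -0.64, led that list and made up most of its summed linear level in BAT-WT.

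Hox genes, which record position along the body axis, differed in both directions. Of 24 Hox genes tested, 5 were higher and 12 lower in BAT (median -0.71). Hoxc9 was at -6.23, -6.07, -6.18 and -6.69 in BAT-WT, on no array above background, and at 1.65, 1.32, 1.60 and 2.04 in gWAT-WT (at least 49.1-fold lower, adjusted p = 7.4e-08). Hoxc8 was at -2.03, -0.79, -2.22 and 0.98 against 2.94, 3.49, 3.65 and 4.0 (difference -4.54, adjusted p = 3.4e-04), with BAT-WT 4 above the other 3. Hoxb5 (-1.91), Hoxb7 (-1.81), Hoxb8 (-1.85) and Hoxd9 (at least 2.77-fold) were lower as well, Hoxb8 with an adjusted p of 0.086 under the slide block. The 5 higher in BAT were all in the Hoxa cluster: Hoxa4 (2.85), Hoxa5 (1.79, adjusted p = 1.7e-05), Hoxa2 (1.18), Hoxa3 (1.02, adjusted p = 0.056 under the slide block) and Hoxa9 (0.69). Hoxa7 was at 1.88, 1.52, 1.32 and 2.86 against 2.84, 3.12, 3.18 and 3.36 (difference -1.23, adjusted p = 0.008) and its difference was -0.19 (adjusted p = 0.58) under the slide block. With slide as a block 4 Hox genes were higher and 7 lower.

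**Figure D3:**
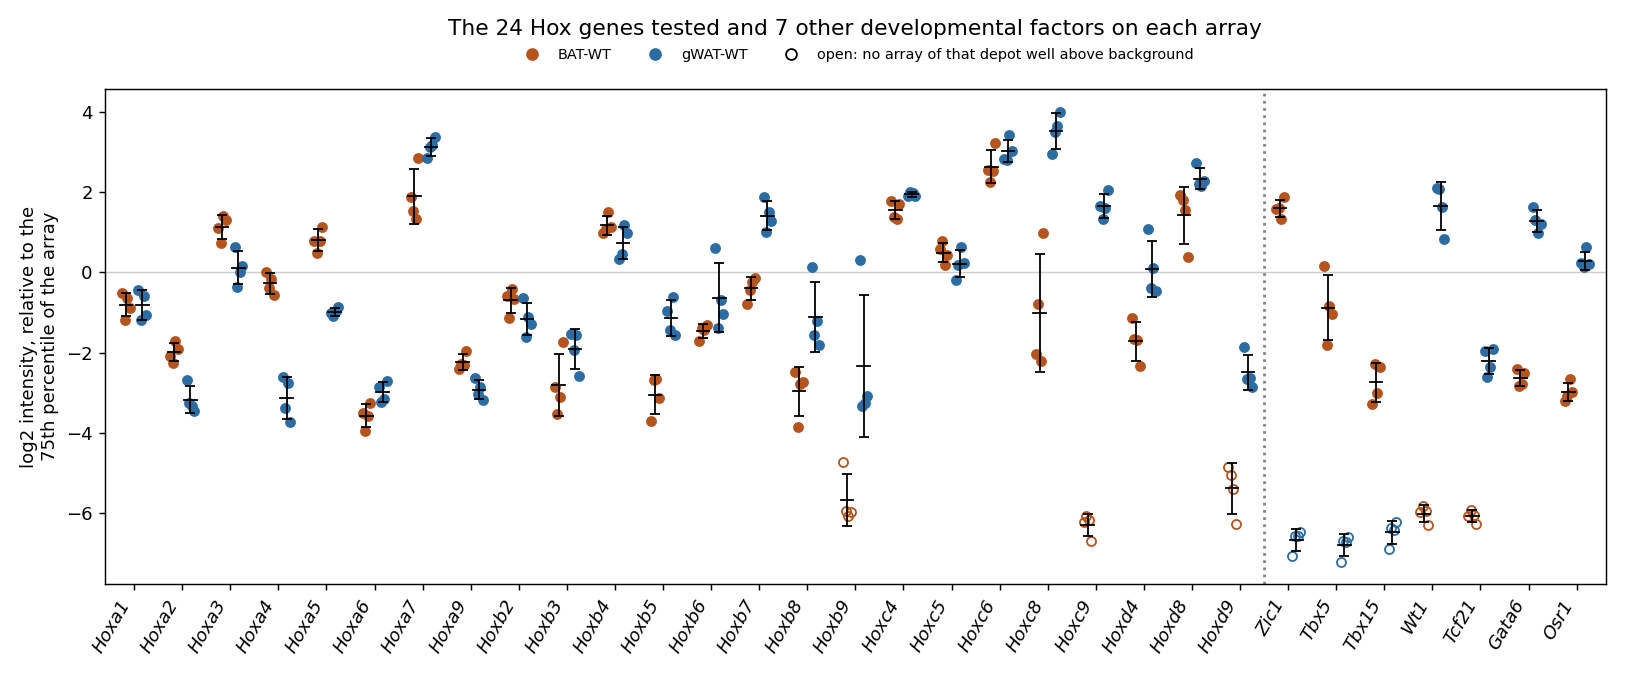
Levels on each array of the 24 tested Hox genes and of 7 other patterning genes (y axis: log2 of the processed signal over the array's 75th percentile; open symbols: no array of the depot well above background). Hoxa2 to Hoxa5, Zic1, Tbx5 and Tbx15 were higher on all BAT-WT arrays, and Hoxc8, Hoxc9, Wt1, Tcf21, Gata6 and Osr1 on all gWAT-WT arrays.

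Other patterning factors were divided evenly, with 10 of 26 higher and 10 lower in BAT. Over all genes tested 35.5% were higher and 29.2% lower, so this split lay near the general shares. Zic1, a zinc finger gene of the dorsal body wall, was at 1.57, 1.59, 1.33 and 1.87 in BAT-WT and -7.07, -6.56, -6.58 and -6.46 in gWAT-WT, on no gWAT array above background (at least 66-fold higher, adjusted p = 3.9e-08). Tbx5 and Tbx15, T-box factors, were at least 11.9-fold and 3.29-fold higher. Wt1, a factor of the visceral mesothelium, was at -5.98, -5.83, -5.94 and -6.30 in BAT-WT and 2.11, 2.07, 1.63 and 0.82 in gWAT-WT (at least 49.3-fold lower, adjusted p = 4.7e-07). Zic1 and Wt1 were thus each measured above background in 1 depot alone. Tcf21 (at least 3.38-fold), Emx2 (at least 5.53-fold), Gata6 (-3.91) and Osr1 (-3.27) were lower in BAT, and Ebf3 (1.62) and Shox2 (1.98) higher. Lhx8, used as a brown fat marker, differed by 0.74 (adjusted p = 0.009) on its brighter probe and by 6.73 on the other, and Ebf2, a brown fat selector gene, by 0.36 (adjusted p = 0.15).

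Genes of the stroma and of other cell types went mostly toward gWAT. Of 27 matrix genes 20 were lower in BAT and 2 higher (median -1.38). Fn1, fibronectin, was at 1.85, 1.84, 2.56 and 1.08 against 5.37, 5.11, 5.97 and 5.92 (difference -3.76, adjusted p = 1.8e-05). Collagens showed 17 lower and 7 higher of 31 (median -0.82), with Col6a5 at least 101-fold lower. Col27a1 was higher by 5.57, though only 1 gWAT-WT array was above background for it. Col1a1 and Col3a1, the main fibrillar chains, differed by -0.60 (adjusted p = 0.12) and -0.46 (adjusted p = 0.22), with arrays that overlapped.

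Macrophage markers were lower in BAT in 18 of 19 cases (median -1.89), with the exception of Itgam (0.39, adjusted p = 0.28, and 1.98 on its other probe). Clec10a, a lectin of resident macrophages, was at -0.09, 0.72, 0.51 and 0.55 against 3.83, 3.48, 3.96 and 3.97 (difference -3.39, adjusted p = 2.8e-06), and Lyve1 differed by -3.54. The summed level of the list was 38.4 to 56.4 in BAT-WT and 122 to 177 in gWAT-WT. MHC class II genes, by which cells present antigen to T cells, were lower in all 9 cases (median -1.60). Stromal progenitor markers were lower in 7 of 10 cases and higher in none, Dpp4 among them (-3.92).

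All 11 mesothelial markers, Wt1 among them, were lower in BAT (median -7.07), and 10 of them were on no BAT-WT array above background. Msln, mesothelin, was at -5.86, -5.71, -5.81 and -6.41 in BAT-WT and 3.66, 3.39, 4.17 and 2.52 in gWAT-WT (at least 169-fold lower, adjusted p = 4.2e-07). The keratin gene Krt18 was at least 93.5-fold lower. The summed level was 0.353 to 0.682 in BAT-WT and 64.7, 41.2, 40.2 and 12.9 on gWAT-WT 1 to 4, so gWAT-WT 4 held the least of this signal. These marker lists moved with the depot beside every gene group above, and their part in the differences was not tested. Muscle markers were mixed (4 higher and 5 lower of 14), near the shares of 35.5% and 29.2% over all genes tested. Ckm, the muscle creatine kinase, was on no array above background, while Acta1, skeletal actin, was at -3.66, -0.65, -0.89 and -3.01 against 1.33, 2.82, 4.40 and 4.56 (difference -5.33, adjusted p = 8.8e-04).

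**Figure D4:**
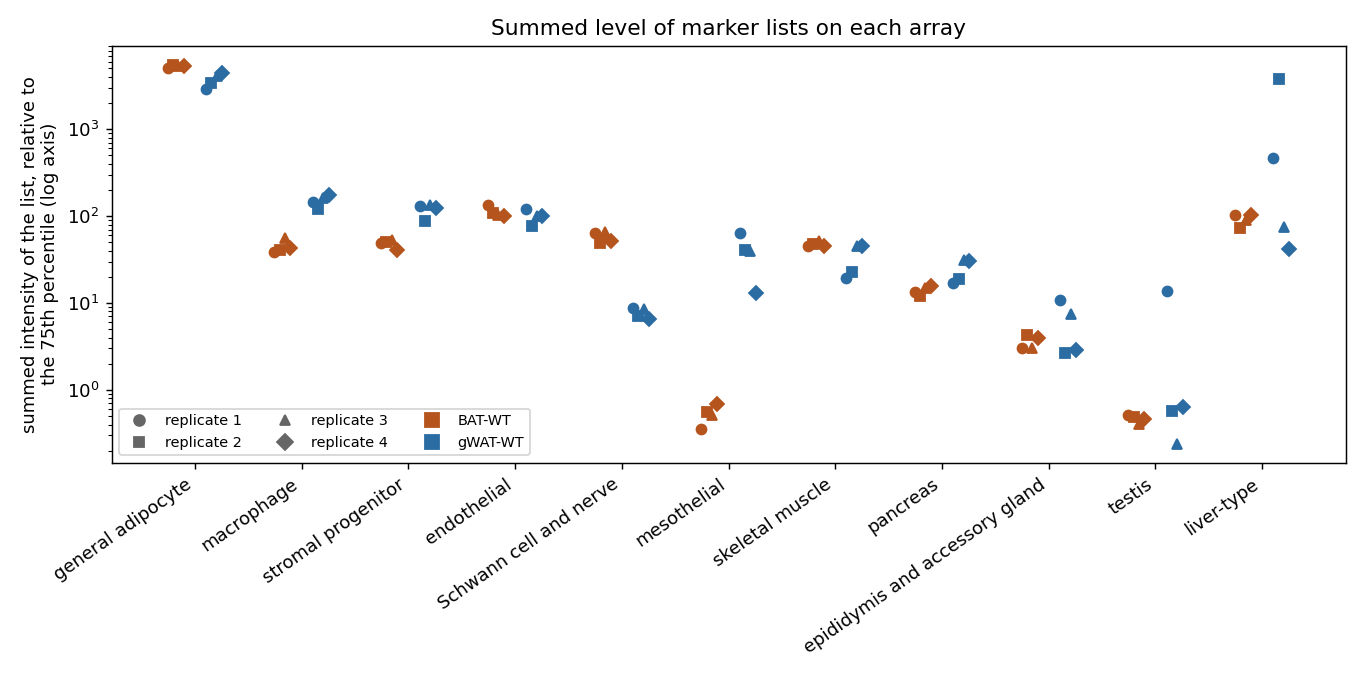
Summed linear level of 11 marker lists on each of the 8 arrays (log axis; marker shape gives the replicate). Mesothelial, macrophage and stromal sums were higher on all gWAT-WT arrays, and the liver-type sum ran from 42.1 to 3812 among the gWAT-WT arrays. The Schwann cell and nerve sum was higher on all BAT-WT arrays (49.5 to 66.2 against 6.52 to 8.72), where S100b alone made up most of it.

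Set against the arrays labelled gWAT-KO, BAT-WT kept the same direction in the list medians of the groups above, except for the cytosolic ribosomal proteins, whose median turned from 0.10 to -0.17, and the muscle markers, which turned from -0.78 to 0.33, and the size of the metabolic gaps was smaller. The thermogenic list still had 26 of 28 genes higher (median 4.09), complex I a median of 1.74, the TCA cycle 2.07 and fatty acid oxidation 2.22. Ucp1 stood at -0.15, -1.53, -1.09 and -3.54 on the gWAT-KO arrays, below every BAT-WT level and above every gWAT-WT level. Cidea (6.99, 6.32, 6.21 and 5.51) and Cpt1b (2.83, 1.86, 1.98 and 0.84) were likewise higher on every array labelled gWAT-KO than on any labelled gWAT-WT. Cidea differed by 4.15 and Cpt1b by 4.32 in this setting. The mesothelial (-6.65) and macrophage (-2.41) medians were close to or beyond those found with gWAT-WT.

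**Figure D5:**
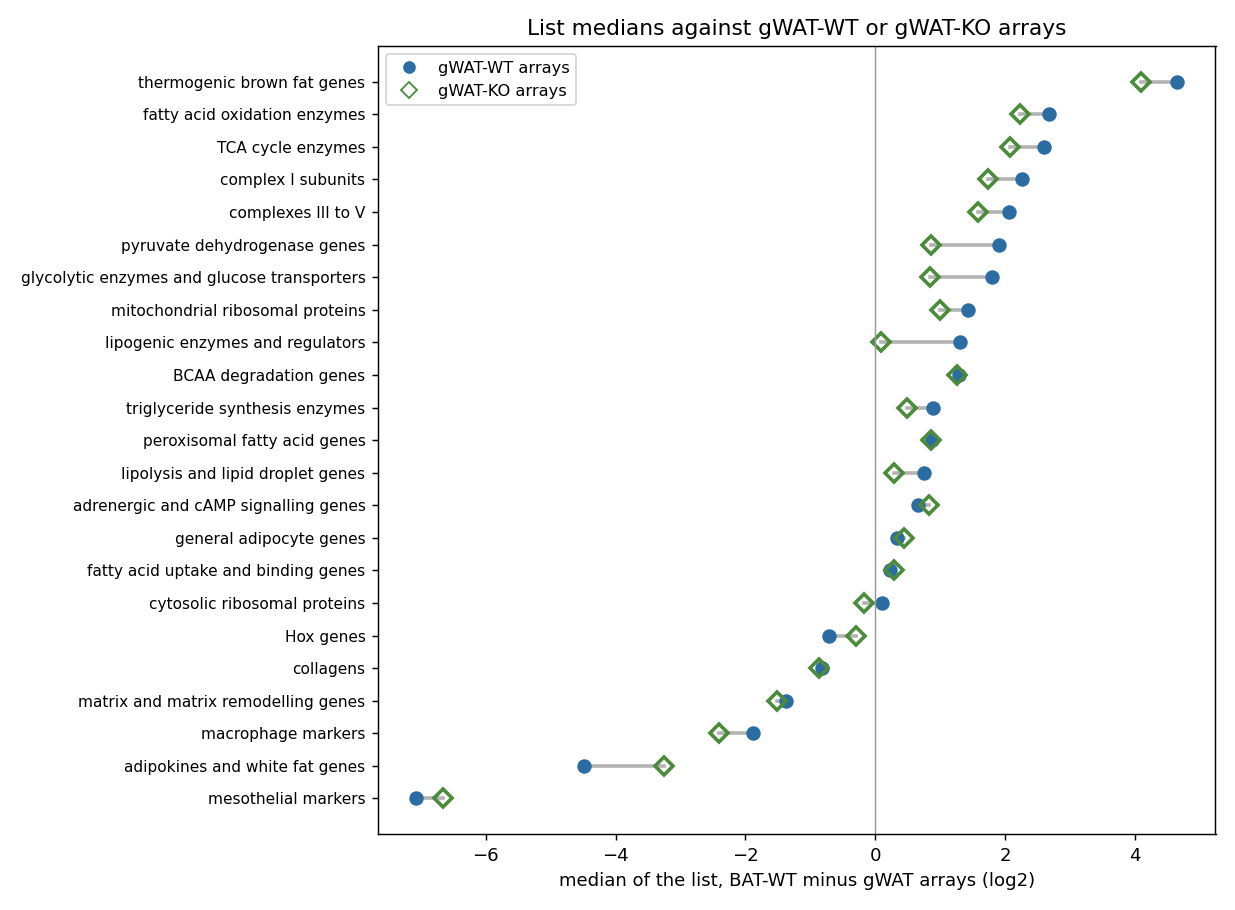
Median difference of each gene list (x axis: log2), with BAT-WT set against the arrays labelled gWAT-WT (circles) and against those labelled gWAT-KO (diamonds); both share the BAT-WT arrays. The adipokine median was -4.48 and -3.26, the glycolytic median 1.79 and 0.84, and the lipogenic median 1.31 and 0.09.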

How the data were processed

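RNA of the 16 samples was hybridised by the authors to 1-colour Agilent mouse arrays, and per the file headers the deposited intensities were extracted with Agilent Feature Extraction 10.7.1.1. The intensity used was the background-subtracted processed signal. The log2 of the authors' deposited values, normalized in GeneSpring, served as an alternative. Here each array was divided by its 75th percentile over 56605 gene probes and put on the log2 scale. A symbol of RefSeq on GRCm38.p6 was found for 32994 (91.9%) of the 35886 probes that carry a RefSeq accession, 22911 symbols in all. Each gene was represented by its probe of highest mean level, and 14299 genes whose signal was well above background on every BAT-WT array or every gWAT-WT array were tested with limma 3.58.1 (lmFit and eBayes in R 4.3.3, 8 arrays, Benjamini-Hochberg adjusted p under 0.05), tested first on simulated data. Genes followed the liver-type pattern when their correlation with the list mean over the gWAT-WT arrays exceeded 0.95 and their range exceeded 2. Named genes were list members and the largest called differences above background in both depots, with bounded genes ranked apart, and other named genes were picked after their values were seen. Members of the liver-type list were counted in no other list, and some genes are not reported here. Members, gene lists and rules were chosen with earlier results of these data known. Alternatives covered the filter, scaling, background, probe choice, slide, replicate block, the methods' t-test and leaving out each array. The mean signal column was not used for the normexp alternative, which took the median signal instead. The number of arrays limits the precision.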

Additional observations from a re-analysis of the deposited data

Results flagged for a closer look

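Of 314 groups of 4 arrays checked for the named genes, 6 held an array set far from the other 3, where chance gives about 1 in 20 groups. On BAT-WT 4, Lep was at -0.26 (group median -0.84) and Plin5 at 7.68 (median 7.33), both high, while Ppara was at 5.81 (median 6.42), low. On BAT-WT 2, Igf1 was high at 2.34 (median 1.58). On gWAT-WT 1, Plin2 was low at 5.18 (median 5.45), and on gWAT-WT 4, Dpp4 was low at -0.44 (median 0.28). None of these values overlapped the other depot. BAT-WT 4 was the only BAT-WT array on slide 2, and the part of the slide in its values was not tested.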

How the results depend on the processing

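Of 143 named genes called, 118 kept their call in each of the 24 settings in which they were tested, and 25 lost it in at least 1. A gene left untested in a setting was not counted as losing its call there. The setting limited to genes well above background on every array of both depots could not test genes such as Ucp1, Zic1 and Wt1. Within slide 2, which set 1 BAT-WT array against 3 gWAT-WT arrays and assumed the lone array to vary like the others, 2437 genes were higher and 2293 lower, and 22 named genes lost their call. With slide as a fixed block 3761 were higher and 2940 lower, and 11 named genes lost it. The 2-fold calls higher in BAT numbered 3747 with Actb and Rplp0 scaling and 1551 with normexp and quantile normalization. An alternative chosen after seeing the data, all 29942 probes that passed the filter with or without a symbol, gave 10972 higher and 7213 lower, and 5426 and 4496 at least 2-fold. More features were tested there, and 60.3% of the calls were higher in BAT against 54.9% in the main fit. Leaving out each array in turn gave 4544 to 5026 higher and 3830 to 4141 lower, with 2346 to 2528 and 2546 to 2684 at least 2-fold. Leaving out the liver-type transcripts and their followers, also chosen after seeing the data, gave 5063 and 4114. Scaling moved the median of all genes from 0.10 to -0.05 (quantile), -0.13 (spike-in), 0.14 (median centring) and 0.43 (Actb and Rplp0), where Actb itself differed by -0.79 and Rplp0 by 0.13. The sign turned for Fabp4 (-0.28 with normexp, -0.26 with quantile), Plin1 (-0.57 and -0.65), Rplp0 (-0.59 and -0.64) and Lpl (0.32 with Actb and Rplp0 scaling). With the arrays labelled gWAT-KO in place it turned, among named genes called in either fit, for Acly (-0.93), Adipoq (0.15), Plin2 (-0.60) and Prm2 (1.22). It also turned for Plin1 (-0.21), Cidec (0.12) and Lpl (0.12), which were called in neither fit. The cause was not tested. Replicate numbers were not taken to pair the samples, since the correlation of same-numbered arrays was 0.18, 0.122 and 0.127 for replicates 1 to 3 but -0.034 for replicate 4, and with a replicate block 4863 were higher and 4155 lower and no named gene lost its call. Signal near background limits genes measured in 1 depot alone, whose differences are bounds.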

Other observations

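Branched-chain amino acid breakdown, a fuel route of brown fat, was higher in BAT in 20 of 23 genes tested and lower in 1 (median 1.28, against 0.10 over all genes). Bckdha, of the rate-limiting dehydrogenase, was at 7.94, 8.06, 8.04 and 7.95 in BAT-WT and 5.41, 5.90, 5.87 and 6.07 in gWAT-WT (difference 2.18), while the cytosolic transaminase gene Bcat1 was lower (-1.27). Peroxisomal fatty acid genes were higher in 16 of 19 cases and lower in 1 (median 0.87), with 8 higher under the slide block and 10 under quantile normalization. The exception was Abcd2, a transporter of very long fatty acids, at -1.12, -0.80, -0.76 and -1.0 against 2.21, 2.47, 3.35 and 2.85 (difference -3.64), whereas its relative Abcd3 differed by 2.59. Fatty acid uptake genes were split, with 7 of 14 higher and 3 lower (median 0.22, and -0.47 under quantile normalization and -0.01 under spike-in scaling). The caveolin genes Cav1 (-1.40) and Cav2 (-1.45) were lower in BAT.

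Secreted factors attributed to brown fat were split as well, with 6 of 13 higher and 6 lower (median -0.61). Nrg4, a growth factor from brown adipocytes, was at 5.10, 5.25, 5.21 and 5.33 against 3.46, 3.81, 3.72 and 4.33 (difference 1.40), and Vegfa differed by 1.21. Igf1 (-3.35) and Bmp7 (-3.15) were lower in BAT. In creatine metabolism, Alpl, a phosphatase of the creatine cycle, was higher (2.47), Gamt, which completes creatine synthesis, was lower (-2.82), and Ckb, the brain-type creatine kinase, differed by -0.44 (adjusted p = 0.16). Clock genes differed little as a group (4 higher and 3 lower of 15, median 0.03, which fell to either side of 0 across scalings), though Arntl was at -1.69, -1.48, -1.30 and -1.51 against -3.01, -3.91, -3.83 and -4.38 (difference 2.29) and differed by 0.65 (adjusted p = 0.16) with the arrays labelled gWAT-KO in place. Immediate early genes gave 4 higher and 3 lower of 19, and Fos overlapped between depots (difference 1.60, adjusted p = 0.10). Cytosolic ribosomal proteins followed the scaling: 23 were higher and 7 lower of 81, against 3 and 66 under quantile normalization, 12 and 22 with spike-in scaling and 59 and 1 with Actb and Rplp0 scaling. Of the genes in the study's PCR panel, which includes its internal controls Actb and Rplp0, 8 of 12 tested were higher and 2 lower. The lower genes were Tbx1 (at least 2.35-fold) and the control Actb (-0.79). Endothelial markers gave 6 higher and 3 lower of 14 (2 and 0 with slide as a block, 2 and 3 with spike-in scaling), T and NK cell markers 1 and 4 of 12, B cell markers 0 and 0 of 4, red cell markers 0 and 1 of 7, epididymis markers 1 and 0 of 4, testis markers 1 and 0 of 3, pancreas markers 2 and 1 of 5, and liver-type transcripts 1 and 23 of 35.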
